A study of Rattus norvegicus with 65 samples.

Results

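Acetaminophen (Ace) was compared with its vehicle control at 2 exposure times in primary neonatal rat cardiomyocytes, and the measurement described here is how the effect of Ace differed between the times, gene by gene. It was the effect of Ace over DMSO2 at 24 hours minus the effect of Ace over DMSO2 at 6 hours, on the log2 scale, called the interaction below. It was estimated for all 14554 genes of the deposited count table. It rests on 27 of the 65 libraries: 6 of Ace and 7 of DMSO2 at 6 hours, and 7 of each at 24 hours. The Ace cultures held 2.5 mM Ace in 0.25% DMSO, and the DMSO2 cultures held 0.25% DMSO alone, so every culture compared here carried DMSO. The cells were heart cells of newborn rats, plated in serum-containing medium and then starved of serum overnight before exposure. Cells of more than 1 litter were pooled for plating, so the libraries are parallel cultures of the same cell preparation, and p-values measure the spread between these cultures rather than between animals. The remaining 38 libraries belong to 10 mM 5-fluorouracil (5FU) with its 1% DMSO control (DMSO1) and to 1.25 μM doxorubicin (Dox) in 0.25% DMSO, each at the same times. PolyA RNA was sequenced in all 65 libraries.

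Acetaminophen is a pain reliever that is conjugated to sulfate or glucuronide or oxidised by cytochrome P450 enzymes to a reactive quinone imine, which glutathione captures. Oxidative or electrophilic stress releases the transcription factor NRF2, which switches on detoxification genes, and misfolded protein in the endoplasmic reticulum switches on its chaperones through ATF6 and XBP1. Newborn heart muscle cells are leaving the cell cycle, and cultures of them hold dividing cells and matrix-making fibroblasts beside the muscle cells. Genes of DNA synthesis are switched on by E2F factors before S phase, whereas genes of mitosis are switched on later, in G2, by B-MYB and FOXM1, which act on promoters with a cell cycle homology region (CHR).

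Total estimated counts ran from 17277845 to 22379517 per library (median 19219714) over the 27 libraries, with TMM scaling factors from 0.972 to 1.06, and 12411 genes had at least 10 counts in every one of them. Levels are given as CPM, a count divided by the TMM-scaled library size and brought to a shared total, as the lowest, highest and median library of a group. All 12 cardiomyocyte marker genes were above 1 CPM on average in each of the 4 groups. Their summed level was 52751 to 56704 (median 53874) CPM in DMSO2 and 54640.0 to 59483 (median 56341) in Ace at 6 hours, and 46362 to 58863 (median 54040.0) in DMSO2 and 46599.6 to 63128 (median 52828) in Ace at 24 hours, and none of the 12 passed the interaction test. A single library stood apart, library 7 of Ace at 24 hours (a number that is only a label). It deviated most from the median of the other libraries of its group, with a root mean square of 0.366 on the log2 scale. By the same measure it had 306 genes off by more than 1 log2 unit. The rest of its group had 175 to 258, and DMSO2 libraries at 24 hours had at most 240. It was the lowest of its group in the mean level of the mitosis, replication, repair and NRF2 lists described below, so those results are given with and without it.

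Ace effects that differed between 6 and 24 hours were found for 1694 of 14554 genes (11.6%) at an FDR below 0.01 in edgeR's quasi-likelihood test, 812 of them (5.58%) with a higher and 882 (6.06%) with a lower effect at 24 hours. The change was at least 1 log2 unit for 340 of these, 226 higher and 114 lower. For most genes it was small: the interaction had a median of -0.015 over all genes, and 5% of genes lay below -0.64 and 5% above 0.72. Scaling by library size alone, without TMM, called 1402 genes higher and 417 lower, so 77.1% of the calls were higher against 47.9% with TMM, while the median over all genes moved only to 0.073. The split between higher and lower calls therefore depends on the scaling. At each time point taken singly, 4619 genes (31.7%) differed between Ace and DMSO2 at 6 hours, 2404 higher (16.5%) and 2215 lower (15.2%), and 5418 (37.2%) at 24 hours, 2645 higher (18.2%) and 2773 lower (19.1%). Leaving out library 7 of Ace at 24 hours gave 1759 interaction calls, 829 higher and 930 lower.

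The 1694 genes fell into distinct time courses. An effect was said to grow where the gene passed the test at 24 hours and its effect was larger there than at 6 hours, to fade where it passed at 6 hours and its effect was smaller at 24 hours, and to reverse where it passed at both times with opposite signs. Growing effects were the most frequent, with 490 genes that grew upwards (median effect 0.053 at 6 hours and 0.68 at 24 hours) and 466 that grew downwards (median -0.13 and -0.78). Fading effects numbered 359 that were higher in Ace at 6 hours (median 0.43, then 0.0082) and 202 that were lower (median -0.44, then 0.010). Reversals were fewer: 91 genes went from lower to higher, with medians of -0.56 and 0.72, and 26 from higher to lower, with medians of 0.35 and -0.29. The other 60 genes were in none of these classes. Class medians describe how the classes were defined and are not tests.

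**Figure D1:**
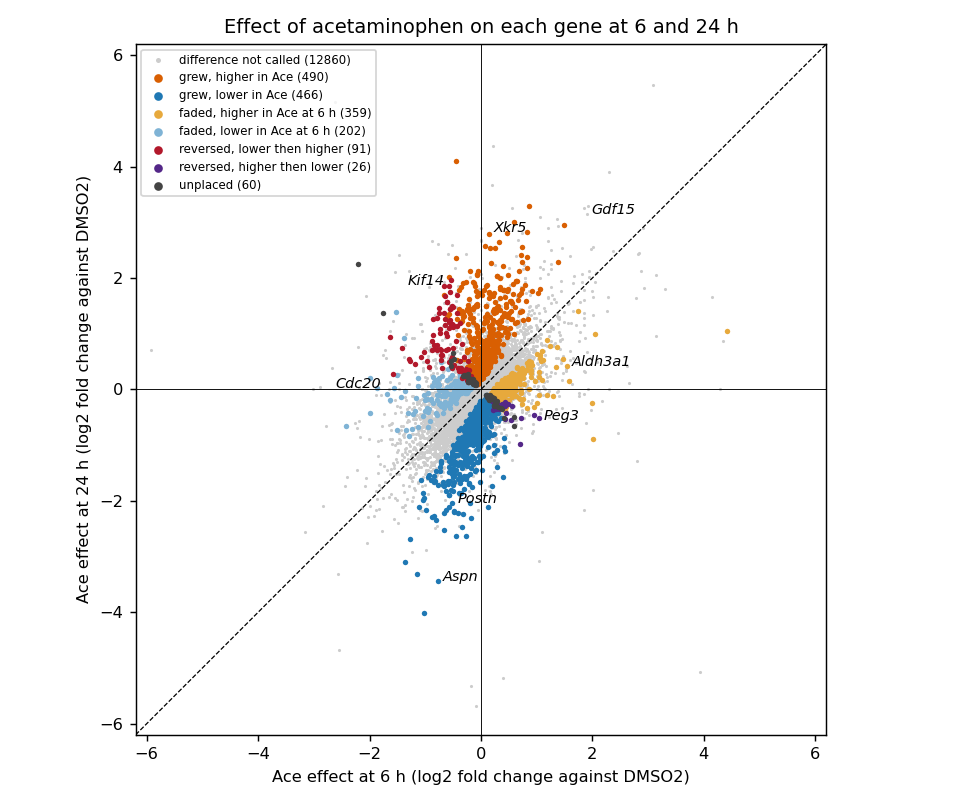
Effect of Ace over DMSO2 at 6 hours (horizontal, log2) against that at 24 hours (vertical, log2), 1 point per gene for 14554 genes, coloured by time course, with the dashed line where both effects are equal. Genes above the line had a higher effect at 24 hours: Kif14 lay at -0.55 and 1.75, and Aspn, far below the line, at -0.77 and -3.43.

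Genes of G2 and mitosis had the largest share of members with a higher interaction among the 40 gene lists examined. Of the 73 tested genes of this list, 72 had a higher Ace effect at 24 than at 6 hours and 0 a lower one, with a median interaction of 1.67 beside -0.015 over all genes. At 6 hours 45 of the 73 were lower and 2 higher in Ace (median -0.53), whereas at 24 hours 70 were higher and 0 lower (median 1.15). By time course, 43 of them reversed from lower to higher, 27 grew upwards and 2 had a lowering that faded. Only Smc4, a condensin subunit that compacts chromosomes, did not pass the interaction test (0.11 ± 0.14, SE, quasi-likelihood FDR = 0.66). Without library 7 of Ace at 24 hours, 72 genes passed and the median interaction was 1.74. With every library, 5.58% of all genes were higher in the interaction, 15.2% lower in Ace at 6 hours and 18.2% higher at 24 hours.

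The promoters of these genes are shown first, because the list shares sequence elements that were not used to choose it. The 120 bases before the transcription start are printed 5′ to 3′ for 3 mitosis genes from RefSeq (assembly GRCr8), with the CHR element TTTGAA and the CCAAT box, or their reverse complements, in capitals. Top2a encodes topoisomerase II alpha, which untangles sister chromosomes, and its sequence is chr10:84473094-84473213 (minus strand). Cdk1 encodes the kinase that drives entry into mitosis, at chr20:19265173-19265292 (plus strand). Cdc20 encodes an activator of the anaphase-promoting complex, at chr5:137255800-137255919 (minus strand).
Top2a: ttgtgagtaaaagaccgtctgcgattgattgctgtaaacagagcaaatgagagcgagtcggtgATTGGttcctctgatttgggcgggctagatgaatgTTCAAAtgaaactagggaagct
Cdk1: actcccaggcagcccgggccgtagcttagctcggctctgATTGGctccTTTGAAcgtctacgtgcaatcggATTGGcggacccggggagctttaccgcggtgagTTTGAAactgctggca
Cdc20: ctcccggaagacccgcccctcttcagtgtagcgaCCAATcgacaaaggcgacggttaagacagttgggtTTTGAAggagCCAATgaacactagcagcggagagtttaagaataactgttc
In Top2a the CHR element begins 22 bases before the start, in Cdc20 51 bases before it, and Cdk1 holds 2 copies, 72 and 16 bases before it. A promoter of 300 bases (250 before the start and 50 after) was at hand for 11403 of the 14554 genes and for 63 of the 73 mitosis genes. TTTGAA occurred on either strand in 42 of those 63 (66.7%) beside 11.7% of all promoters, and CCAAT in 45 (71.4%) beside 37%. Among the 91 genes that reversed from lower to higher, 43 of which are on the mitosis list, 39 of 76 promoters held TTTGAA (51.3%). A match of these letters is a description and does not show that a factor binds there.

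Top2a lay between 80.9 and 98 CPM (median 90.7) in DMSO2 and between 54.5 and 63.4 CPM (median 59.5) in Ace at 6 hours, and between 30.6 and 41.4 CPM (median 36.7) in DMSO2 and between 70.8 and 135 CPM (median 117) in Ace at 24 hours. The Ace libraries were thus all below DMSO2 at 6 hours and all above it at 24 hours, while the level in DMSO2 fell over time. The Ace effect went from -0.60 to 1.57, an interaction of 2.18 ± 0.14 (SE, quasi-likelihood FDR = 1.8e-19). Kif14, a kinesin of the midbody that acts in cytokinesis, lay between 6.28 and 8.46 CPM (median 7.53) in DMSO2 and between 4.2 and 5.84 CPM (median 5.12) in Ace at 6 hours, and between 2.46 and 3.26 CPM (median 2.64) in DMSO2 and between 4.95 and 11.9 CPM (median 10.3) in Ace at 24 hours. It showed the same crossing, from -0.55 to 1.75, with no overlap between Ace and DMSO2 at either time (interaction 2.30 ± 0.20, SE, quasi-likelihood FDR = 9.6e-15). Cdk1 had 33.4 to 40.4 (median 35.9) CPM in DMSO2 and 23.1 to 27.3 (median 24.1) in Ace at 6 hours, then 13.6 to 17.8 (median 16) in DMSO2 and 25 to 42.9 (median 33.8) in Ace at 24 hours. Its effect changed sign too, from -0.57 to 1.10, and its ranges did not overlap at either time (interaction 1.67 ± 0.12, SE, quasi-likelihood FDR = 2.4e-17).

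The genes with the largest rises were mostly genes of cell division. Beside Kif14 they included Troap, which encodes a spindle-associated protein (2.52 ± 0.21), Ankle1, an endonuclease (2.49 ± 0.20), Cdca2, a chromosome-bound partner of protein phosphatase 1 (2.44 ± 0.18), and Espl1, the separase that cuts cohesin (2.33 ± 0.17), all 4 of which reversed from lower to higher. Esco2, which acetylates cohesin (2.38 ± 0.23), Fam111a, a protease of replication forks (2.28 ± 0.23), Cenpt, a kinetochore protein (2.25 ± 0.16), and Ube2t, the ubiquitin-conjugating enzyme of the Fanconi pathway (2.19 ± 0.23), did not pass the test at 6 hours and grew upwards. All of these 9 passed the interaction test, with quasi-likelihood FDRs of at most 1.1e-11 (errors are SE). In library 7 of Ace at 24 hours Ankle1, Espl1 and Cenpt were at 5.89, 21 and 10.6 CPM, the lowest of the 7 libraries by a wide gap, yet above the highest DMSO2 library at 24 hours in each case.

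The largest rise among called genes with a mean count of at least 100 belonged to no listed cell cycle group. Xkr5, a member of the XK family of membrane proteins, lay between 6.18 and 9.13 CPM (median 7.79) in DMSO2 and between 8.09 and 8.6 CPM (median 8.33) in Ace at 6 hours, and between 1.16 and 1.66 CPM (median 1.51) in DMSO2 and between 6.58 and 13.6 CPM (median 10.3) in Ace at 24 hours. Ace and DMSO2 overlapped at 6 hours and were far apart at 24 hours, where the DMSO2 cultures had lost most of the transcript and the Ace cultures had not. The Ace effect was 0.15 at 6 hours (quasi-likelihood FDR = 0.36) and 2.78 at 24 hours, an interaction of 2.63 ± 0.19 (SE, quasi-likelihood FDR = 2.5e-17).

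Among mitosis genes that were far lower in Ace at 6 hours, Cdc20 and Plk1 had CPM ranges that overlapped the control at 24 hours. Cdc20 lay between 44.5 and 53.8 CPM (median 48.9) in DMSO2 and between 13.7 and 16 CPM (median 15.1) in Ace at 6 hours, and between 18.5 and 23.3 CPM (median 21.1) in DMSO2 and between 12.3 and 25.5 CPM (median 19.7) in Ace at 24 hours. All Ace libraries were below all DMSO2 libraries at 6 hours, and the groups overlapped at 24 hours. Its effect faded from -1.69 to -0.086, an interaction of 1.61 ± 0.16 (SE, quasi-likelihood FDR = 3.7e-12). Plk1, the polo-like kinase of spindle assembly, had 29.7 to 34.2 (median 30.7) CPM in DMSO2 and 9.76 to 11.6 (median 10.3) in Ace at 6 hours, then 11.1 to 15 (median 14) in DMSO2 and 12.6 to 17.3 (median 17) in Ace at 24 hours. It was also well separated at 6 hours and overlapped at 24 hours, where its effect was 0.28 after -1.57. Unlike Cdc20, Plk1 passed the test at 24 hours despite the overlap, and so was among the genes that reversed from lower to higher. Ccnb1, cyclin B1, went from -1.29 to 0.54, and Ube2c, which works with the anaphase-promoting complex, from -1.42 to 0.74. Mki67, the proliferation marker Ki-67, differed from these genes. It did not pass at 6 hours (-0.22, quasi-likelihood FDR = 0.14) and was higher in Ace at 24 hours (1.05), with an interaction of 1.27 ± 0.17 (SE).

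**Figure D2:**
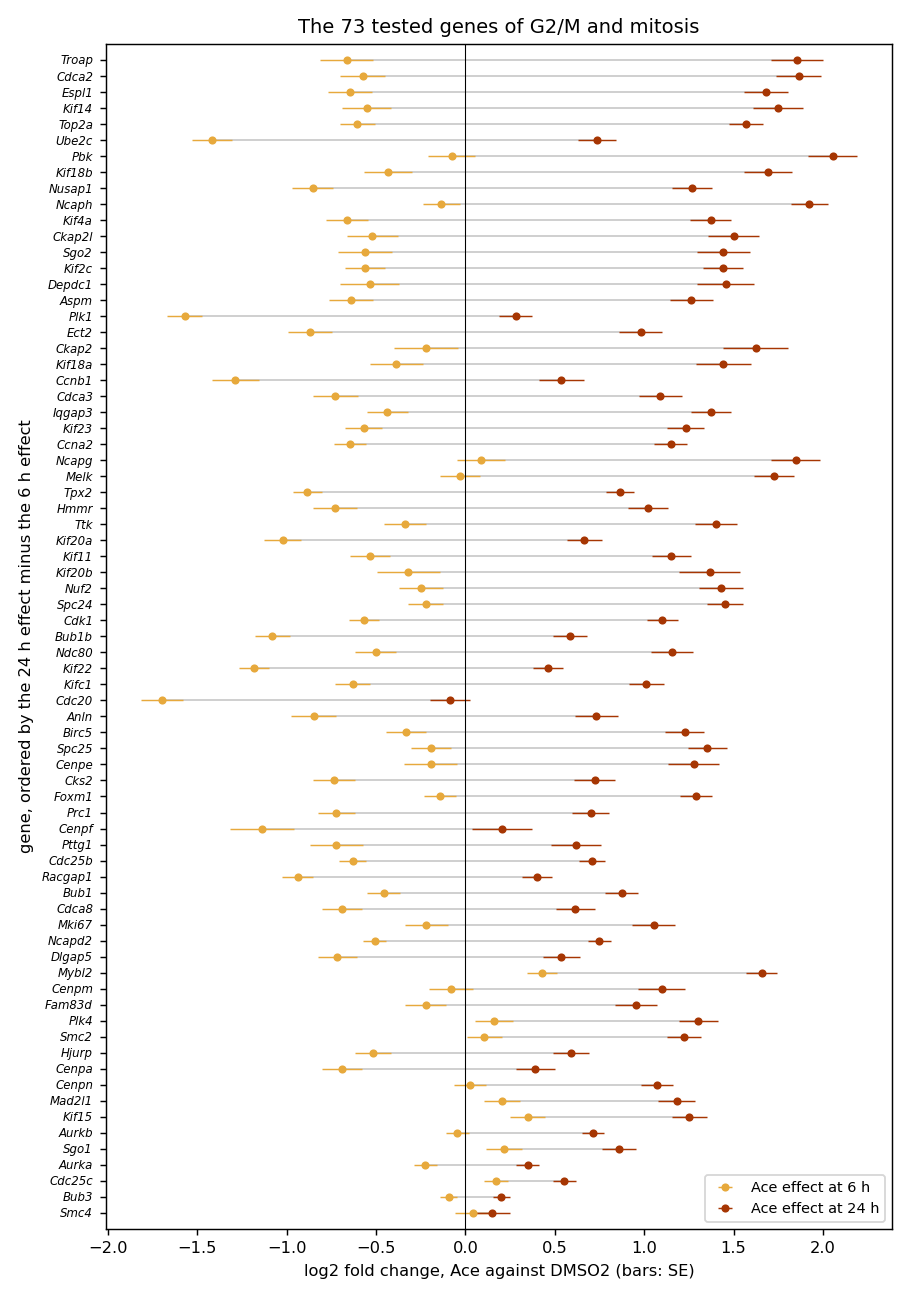
Effect of Ace over DMSO2 (log2, with SE) at 6 hours and at 24 hours for each of the 73 tested genes of the G2/M and mitosis list. The 6 hour effects centre on -0.53 and the 24 hour effects on 1.15, and the 24 hour effect is the higher of the pair for the 72 genes that passed.

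The rise of the mitosis genes had a part in each arm. In DMSO2 the list fell over time: 68 of 73 genes were lower at 24 than at 6 hours and 0 higher (median -1.03), where 27% of all genes rose and 25.5% fell in DMSO2, 52.6% in all. In Ace 56 rose and 1 fell (median 0.57), where 22.2% of all genes rose and 23.8% fell, 46% in all. The mean log2 CPM of the list per library was 4.49 ± 0.081 (SD, n = 7) in DMSO2 and 4.01 ± 0.061 (n = 6) in Ace at 6 hours, and 3.52 ± 0.091 (n = 7) and 4.56 ± 0.28 (n = 7) at 24 hours. In the last group library 7 was lowest at 3.97, the next was at 4.5 and the highest at 4.85.

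Many genes of DNA synthesis were already higher in Ace at 6 hours and more so at 24 hours, unlike the mitosis genes. Of the 50 tested DNA replication genes, 36 had a higher Ace effect at 24 hours and 1 a lower one, with a median interaction of 0.55. At 6 hours 21 were higher in Ace and 1 lower (median 0.21), and at 24 hours 46 and 1 (median 0.81). Over time 45 of the 50 fell in DMSO2 and 0 rose (median -0.83), and in Ace 23 fell and 2 rose (median -0.22), so the growing effect came with a smaller loss in Ace. Without library 7 of Ace at 24 hours 37 passed upwards. With every library, 5.58% of all genes were higher in the interaction, 16.5% higher in Ace at 6 hours and 18.2% at 24 hours.

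Mcm5 encodes a subunit of the replicative helicase, and its promoter is shown because it carries an E2F element (capitals) at its very end. The 120 bases before the start lie at chr19:13488693-13488812 (plus strand) in GRCr8 and are again from RefSeq, 5′ to 3′.
Mcm5: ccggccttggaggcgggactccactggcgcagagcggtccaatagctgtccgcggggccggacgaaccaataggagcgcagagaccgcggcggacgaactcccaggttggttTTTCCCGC
The E2F letters searched were TTTGGCGC, TTTCGCGC and TTTCCCGC on both strands. They occurred in 15 of the 39 replication promoters at hand (38.5%) beside 3.29% of all promoters and in 2 of 63 mitosis promoters, and TTTGAA in 3 of the 39. Mcm5 lay between 45.8 and 52.2 CPM (median 48.7) in DMSO2 and between 57.4 and 65.8 CPM (median 60.6) in Ace at 6 hours, and between 14.8 and 19.3 CPM (median 17.2) in DMSO2 and between 30.3 and 40.8 CPM (median 37.9) in Ace at 24 hours. Every Ace library was above every DMSO2 library at both times, and both arms fell over time, DMSO2 by more. Its effect grew from 0.33 to 1.10, an interaction of 0.77 ± 0.12 (SE, quasi-likelihood FDR = 2.0e-06).

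E2f1, an E2F factor that switches on these genes, went from an effect of 0.92 to 1.76 (interaction 0.84 ± 0.16, SE, quasi-likelihood FDR = 5.7e-05), and E2f8, a repressor of the same family that E2F1 itself induces, from 0.74 to 2.56. Pole2, a subunit of DNA polymerase epsilon, went from 0.62 to 1.95. Pola2, a subunit of DNA polymerase alpha, was the gene that went against the list: its effect was -0.17 at 6 hours and -0.46 at 24 hours, with Ace below DMSO2 in every library at both times. Its call was lost with scaling by library size alone (quasi-likelihood FDR = 0.044). Rrm2, a subunit of ribonucleotide reductase, had an interaction of 1.75 ± 0.19 (SE), but a near-identical locus could share its reads, so its level is uncertain.

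Genes of double-strand break and Fanconi repair went up in part. Of 49 tested, 20 were higher and 2 lower in the interaction (median 0.24), beside 5.58% and 6.06% of all genes. In Ace 21 were higher at 6 hours and 34 at 24 hours, beside 16.5% and 18.2% of all genes. Brca1, which acts in homologous recombination, had 10.9 to 12.9 (median 11.6) CPM in DMSO2 and 14.9 to 19.5 (median 18.1) in Ace at 6 hours, then 6.1 to 7.05 (median 6.39) in DMSO2 and 15 to 25 (median 21.9) in Ace at 24 hours, and its Ace libraries were all above DMSO2 at both times. The effect grew from 0.57 to 1.72 (interaction 1.15 ± 0.14, SE, quasi-likelihood FDR = 1.7e-09). Fancd2, the central substrate of the Fanconi pathway, went from 0.090 to 1.49. Fance, a core complex member, faded instead, from 0.46 to 0.040 (interaction -0.42 ± 0.093, SE, quasi-likelihood FDR = 5.8e-04), a call lost with scaling by library size alone (quasi-likelihood FDR = 0.015). Without library 7 of Ace at 24 hours 22 passed upwards and 1 downwards.

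**Figure D3:**
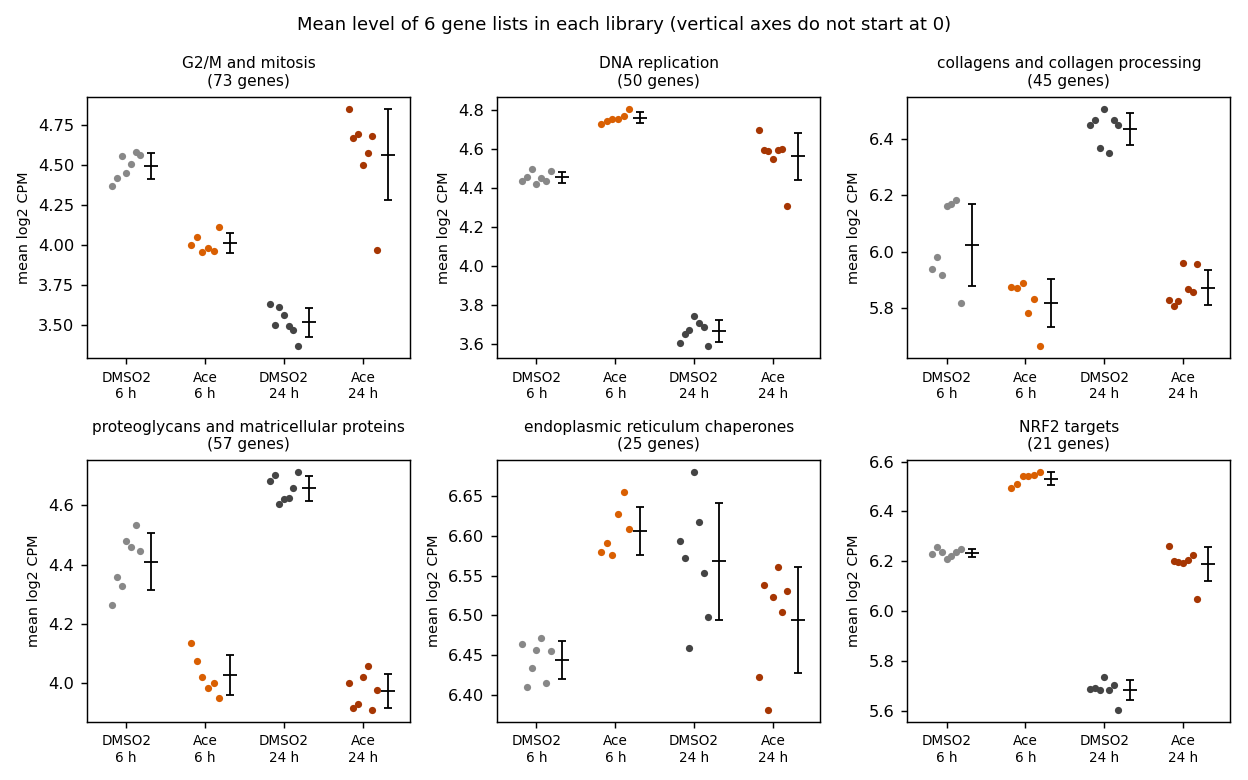
Mean log2 CPM of 6 gene lists in each of the 27 libraries, by group, with bars at the group mean ± SD (vertical axes do not start at 0). For mitosis the groups run from 3.52 in DMSO2 at 24 hours to 4.56 in Ace at 24 hours, where library 7 sits lowest at 3.97.

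Targets of p53 that differed between Ace and DMSO2 were nearly all higher in Ace at both times. Of 29 tested, 13 were higher in Ace at 6 hours and 23 at 24 hours, beside 16.5% and 18.2% of all genes. In the interaction 4 were higher and 1 lower (median 0.21), beside 5.58% and 6.06% of all genes. The higher ones were Ddias, an anti-apoptotic factor (2.0 ± 0.29), Gtse1, which restrains p53 in G2 (1.61 ± 0.32), Plk5 (1.45 ± 0.35), and Pmaip1, the death-promoting NOXA (1.07 ± 0.28), where errors are SE. Gdf15, a stress-induced cytokine, had 6.31 to 8.55 (median 7.57) CPM in DMSO2 and 22.1 to 31.6 (median 29.2) in Ace at 6 hours, then 6.27 to 8.24 (median 6.92) in DMSO2 and 54.6 to 73.1 (median 61.2) in Ace at 24 hours, with Ace above DMSO2 in every library at both times. Its effect was 1.89 at 6 hours and 3.15 at 24 hours, but the interaction of 1.26 ± 0.42 (SE) did not pass (quasi-likelihood FDR = 0.027). Cdkn1a, the cell cycle inhibitor p21, likewise had effects of 0.70 and 1.17 and an interaction of 0.48 ± 0.31 (SE, quasi-likelihood FDR = 0.29). Both passed when only the 27 libraries were fitted, with quasi-likelihood FDRs of 1.8e-09 for Gdf15 and 8.3e-05 for Cdkn1a, and the list then held 13 higher genes and 1 lower.

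The genes with the largest falls in Ace effect included many extracellular matrix and fibroblast genes. Over time 22 of the 45 collagen genes rose and 6 fell in DMSO2, where 27% of all genes rose and 25.5% fell. In Ace 11 rose and 10 fell, near the shares of all genes (22.2% and 23.8%). Of 57 proteoglycan and matricellular genes 19 were lower and 4 higher in the interaction (median -0.27), and of 45 genes of collagens and their processing 14 were lower and 0 higher (median -0.28). Of 39 matrix proteases and inhibitors 9 were lower and 2 higher (median -0.24). Over all genes tested, 6.06% were lower and 5.58% higher in the interaction. The collagen count was sensitive to the processing: it was 4 with scaling by library size alone and 21 with only the 27 libraries fitted, and it was 9 without library 7 of DMSO2 at 6 hours, the lowest when libraries were left out in turn.

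Levels of fibroblast markers moved with these genes. Of 12 fibroblast markers, 11 of which averaged above 1 CPM in each group and several of which are matrix genes counted above, 7 were lower and 0 higher in the interaction (median -0.74). Their summed level was 9745 to 14523 (median 12433) CPM in DMSO2 and 7379 to 11006 (median 9613) in Ace at 6 hours, then 15182 to 18976 (median 16679) in DMSO2 and 7311 to 9338 (median 7903) in Ace at 24 hours. The sum was thus well apart between Ace and DMSO2 at 24 hours and overlapped at 6 hours. Taken singly, 8 of the 12 fibroblast markers were already lower in Ace at 6 hours (median effect -0.37), and 11 were lower at 24 hours (median -1.26). Over all genes 15.2% were lower at 6 hours and 19.1% at 24 hours. In RNA of a whole culture fewer cells of a type and less RNA per cell cannot be told apart, and the part of the number of fibroblasts in the matrix results was not tested. Endothelial markers summed to 288 to 360 (median 319) CPM in DMSO2 and 217 to 268 (median 240.2) in Ace at 6 hours. At 24 hours they summed to 317 to 418 (median 371) in DMSO2 and 190.1 to 330.2 (median 240.2) in Ace. The ranges of this sum, in which abundant genes weigh most, were thus apart at 6 hours and overlapped at 24 hours. Taken singly, 4 of the 11 endothelial markers were lower in Ace at 6 hours (median effect -0.45) and 8 at 24 hours (median -0.71). Over all genes these shares were 15.2% and 19.1%, and 0 of the 11 were higher at either time. In the interaction 2 of the 11 were lower, where 6.06% of all genes were. Macrophage markers summed to 72.8 to 86.7 (median 81.4) in DMSO2 and 67.7 to 75.9 (median 71.3) in Ace at 6 hours, where the ranges overlapped. At 24 hours the macrophage sums were 125 to 152 (median 148) and 90.2 to 111 (median 106), in the same order, with 2 of 12 lower. The endothelial genes included Vwf, von Willebrand factor (-1.08 ± 0.25, SE), and the macrophage genes included Cd68 (-0.81 ± 0.14, SE). Of smooth muscle and pericyte markers 1 of 12 was lower, of epicardial markers 1 of 9 was higher, and none of 6 Schwann cell or 4 erythroid markers passed.

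Aspn, a small leucine-rich proteoglycan that binds TGF-beta, had the largest fall among called genes with a mean count of at least 100. It lay between 3.14 and 7.67 CPM (median 4.18) in DMSO2 and between 2.14 and 3.46 CPM (median 3.06) in Ace at 6 hours, and between 16.5 and 23.2 CPM (median 19.5) in DMSO2 and between 1.48 and 2.57 CPM (median 1.62) in Ace at 24 hours. The groups overlapped at 6 hours, and at 24 hours every DMSO2 library was above every Ace library, after a rise in DMSO2. The Ace effect went from -0.77 to -3.43, an interaction of -2.67 ± 0.35 (SE, quasi-likelihood FDR = 1.6e-08). Postn, periostin, a matricellular protein of activated fibroblasts, had 436 to 524 (median 484) CPM in DMSO2 and 322 to 365 (median 332) in Ace at 6 hours, then 1414 to 1604 (median 1514) in DMSO2 and 273 to 511 (median 335) in Ace at 24 hours. It rose over time in DMSO2 (1.64) and its change in Ace was 0.12 (quasi-likelihood FDR = 0.47), so the Ace effect went from -0.52 to -2.05.

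Dcn and Lum, the proteoglycans decorin and lumican that regulate collagen fibrils, instead fell in Ace while they rose in DMSO2. Dcn changed by -0.68 in Ace and 0.34 in DMSO2, an interaction of -1.02 ± 0.10 (SE), and Lum by -0.81 and 0.37, an interaction of -1.18 ± 0.12 (SE). For both, Ace was below DMSO2 in every library at both times. Eln, tropoelastin, had an interaction of -1.12 ± 0.14 (SE), and Col3a1, the chain of type III collagen, of -0.86 ± 0.15 (SE, quasi-likelihood FDR = 9.6e-06). Col1a1, a chain of type I collagen, did not pass (-0.46 ± 0.22, SE, quasi-likelihood FDR = 0.13). Hapln3, a link protein of hyaluronan, moved the other way: it lay between 1.46 and 2.77 CPM (median 2.11) in DMSO2 and between 1.04 and 2.57 CPM (median 2.09) in Ace at 6 hours, and between 1.28 and 1.92 CPM (median 1.81) in DMSO2 and between 2.67 and 8.59 CPM (median 5.41) in Ace at 24 hours, and every Ace library at 24 hours was above every DMSO2 library at 24 hours and every Ace library at 6 hours (interaction 1.85 ± 0.36, SE).

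Other genes with large falls were Fndc1, a fibronectin-domain protein (-1.68 ± 0.26), Cpz, a carboxypeptidase with a Wnt-binding domain (-1.55 ± 0.25), Itga8, the integrin alpha 8 chain (-1.50 ± 0.15), and Dpep1, a membrane dipeptidase (-1.43 ± 0.19), all with SE and all grown downwards. Itga8 and Dpep1 had changes over time in DMSO2 of 0.14 and 0.031 that did not pass, and fell in Ace by 1.36 and 1.40 on the log2 scale. Fndc1 and Cpz rose in DMSO2 (1.23 and 1.83), and their changes in Ace did not pass (-0.45 and 0.29). Dhrs7c, a dehydrogenase of the sarcoplasmic reticulum of heart and skeletal muscle, is a muscle gene among them, with an interaction of -1.48 ± 0.26 (SE). Pla2g2a, a secreted phospholipase A2 on the prostaglandin list, had -2.13 ± 0.34 (SE) at low levels of 0.461 to 2.82 (median 1.25) CPM in Ace at 24 hours.

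Signalling genes of the Wnt, TGF-beta, BMP and IGF pathways that passed also went mostly down, 11 lower and 1 higher of 57 (median -0.13), while the other 45 did not pass. The median was -0.21 without library 3 of Ace at 24 hours and -0.040 with scaling by library size alone, where 8 were lower. With TMM, 6.06% of all genes were lower and 5.58% higher in the interaction. Igf1, insulin-like growth factor 1, had 14.4 to 19.4 (median 18.8) CPM in DMSO2 and 10.8 to 12.6 (median 12) in Ace at 6 hours, then 37.6 to 44.5 (median 42.2) in DMSO2 and 8.69 to 16.4 (median 12.8) in Ace at 24 hours. In DMSO2 it rose over time and in Ace its change did not pass (0.12), which gave an interaction of -1.09 ± 0.13 (SE, quasi-likelihood FDR = 2.6e-09). Igf2, the fetal growth factor, had -1.11 ± 0.12 and Igfbp3, the main binding protein of both ligands, -1.22 ± 0.30 (SE). Sfrp2, a secreted Wnt modulator, was at 5.86 to 11.9 (median 9.03) CPM in DMSO2 and 3.09 to 4.7 (median 3.44) in Ace at 6 hours, and 9.37 to 13.9 (median 12) and 1.39 to 2.63 (median 1.75) at 24 hours, with an interaction of -1.42 ± 0.25 (SE). Cxcl12, a chemokine of stromal cells, had -0.94 ± 0.14 (SE).

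Peg3 had the largest interaction of the genes that reversed from higher to lower and had a mean count of at least 100. This zinc finger gene, imprinted and expressed from the paternal allele, lay between 115 and 146 CPM (median 123) in DMSO2 and between 249 and 279.7 CPM (median 272) in Ace at 6 hours, and between 267 and 359.6 CPM (median 333) in DMSO2 and between 216 and 245 CPM (median 228) in Ace at 24 hours. The Ace libraries were all above DMSO2 at 6 hours and all below it at 24 hours, the mirror image of the mitosis genes, and DMSO2 moved far more than Ace over time (1.34 against -0.21). The effect went from 1.05 to -0.51, an interaction of -1.56 ± 0.12 (SE, quasi-likelihood FDR = 1.6e-16). Zim1, an imprinted zinc finger gene that neighbours Peg3, rose over time in both arms, by 2.35 in DMSO2 and 0.67 in Ace, with an interaction of -1.68 ± 0.22 (SE). Gpr27, an orphan receptor (0.54 to -0.54), Slc7a8, an amino acid transporter (0.45 to -0.43), and Mylip, which degrades the LDL receptor (0.56 to -0.30), reversed as well, though their Ace and DMSO2 ranges overlapped at each time.

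**Figure D4:**
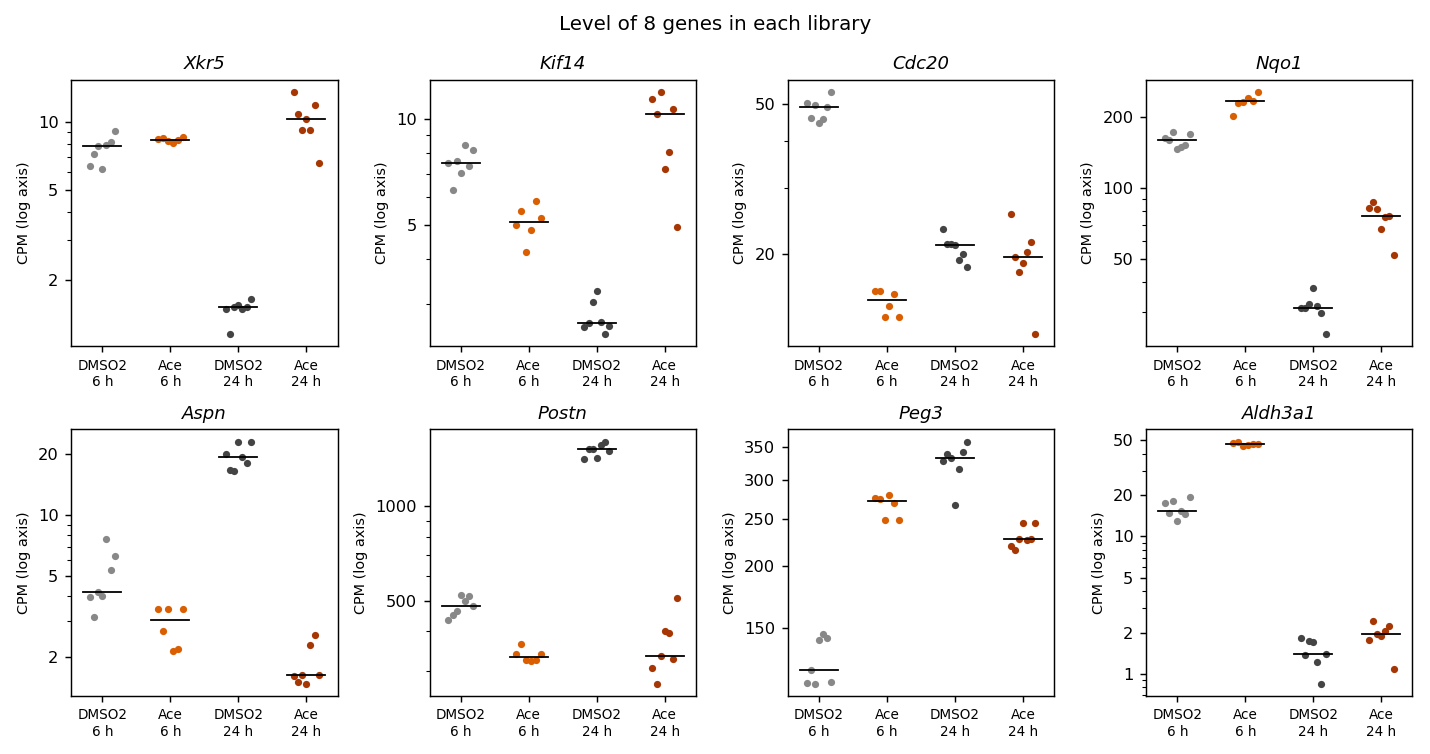
CPM (log axes) of Xkr5, Kif14, Cdc20, Nqo1, Aspn, Postn, Peg3 and Aldh3a1 in each of the 27 libraries, by group, with a line at the group median. Peg3 is above DMSO2 in every Ace library at 6 hours and below it in every Ace library at 24 hours (medians 272 and 123, then 228 and 333), and Kif14 does the opposite.

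Some chaperones of the endoplasmic reticulum were higher in Ace at 6 hours, and for part of them this effect faded. Of 25 tested, 9 were lower and 0 higher in the interaction (median -0.24), beside 6.06% and 5.58% of all genes. At 6 hours 9 were higher and 1 lower in Ace, beside 16.5% and 15.2% of all genes. At 24 hours 1 was higher and 5 were lower, beside 18.2% and 19.1%. By time course, the 9 lower in the interaction held 5 with a higher effect that faded, 3 that grew downwards and 1 that reversed from higher to lower. With scaling by library size alone only 3 were lower in the interaction, and Calr, Hsp90b1 and Sel1l did not pass. Over time 8 rose and 4 fell in DMSO2, beside 27% and 25.5% of all genes. In Ace 3 rose and 7 fell, beside 22.2% and 23.8% of all genes. Many promoters of the chaperone list hold the endoplasmic reticulum stress element (ERSE), in capitals below. Hspa5, which encodes the chaperone BiP, is shown at chr3:38452896-38453015 (plus strand), and Hsp90b1, which encodes GRP94, at chr7:23012294-23012413 (minus strand). Both are RefSeq sequences of GRCr8, the 120 bases before the start, 5′ to 3′.
Hspa5: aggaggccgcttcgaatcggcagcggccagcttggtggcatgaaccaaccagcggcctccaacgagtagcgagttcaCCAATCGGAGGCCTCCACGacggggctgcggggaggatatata
Hsp90b1: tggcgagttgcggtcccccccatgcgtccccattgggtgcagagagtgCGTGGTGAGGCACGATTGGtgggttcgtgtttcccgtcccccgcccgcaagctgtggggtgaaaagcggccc
The ERSE searched for was CCAAT followed by 9 bases of any kind and CCACG, so that each ERSE contains a CCAAT box. It occurred on either strand in 9 of the 19 promoters of the list at hand (47.4%) beside 0.158% of all promoters.

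Hspa5 lay between 706 and 752 CPM (median 727) in DMSO2 and between 1010.1 and 1101 CPM (median 1047) in Ace at 6 hours, and between 772 and 895 CPM (median 834) in DMSO2 and between 699.9 and 915 CPM (median 827) in Ace at 24 hours. The Ace libraries stood clear above DMSO2 at 6 hours, and the groups overlapped at 24 hours. Its effect faded from 0.53 to -0.046, an interaction of -0.58 ± 0.10 (SE, quasi-likelihood FDR = 7.7e-06). Dnajb9, a BiP co-chaperone, faded from 0.43 to -0.047, Calr, the calcium-binding chaperone calreticulin, from 0.23 to -0.17, and Sel1l, an adaptor of protein degradation at the reticulum, from 0.29 to -0.039. Hsp90b1 crossed from 0.16 to -0.18, both small. Xbp1, the transcription factor of this response, did not pass at 6 hours (0.14, quasi-likelihood FDR = 0.092) and was lower in Ace at 24 hours (-0.36). Among 28 ATF4 targets, the amino acid response genes, 1 was higher and 2 were lower in the interaction, near the 11.6% of all genes that passed. Ddit3, the factor CHOP, was higher (0.47 ± 0.10, SE). Aldh1l2, a mitochondrial folate enzyme (-1.07 ± 0.16, SE), and Slc7a5, an amino acid transporter (-0.68 ± 0.11, SE), were lower. Atf4 itself did not pass (-0.13 ± 0.13, SE, quasi-likelihood FDR = 0.53).

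Other early rises that faded were led by Aldh3a1, an aldehyde dehydrogenase. It lay between 12.9 and 19.5 CPM (median 15.3) in DMSO2 and between 45.1 and 49 CPM (median 47.3) in Ace at 6 hours, and between 0.852 and 1.83 CPM (median 1.4) in DMSO2 and between 1.09 and 2.44 CPM (median 1.94) in Ace at 24 hours. The Ace libraries stood clear above DMSO2 at 6 hours, and the ranges overlapped at 24 hours. On the log2 scale the gene fell by 4.62 in Ace and fell by 3.48 in DMSO2. The interaction was -1.14 ± 0.22 (SE, quasi-likelihood FDR = 5.4e-05). H1f2, a linker histone, went from 1.35 to 0.40, although histone genes of this kind resemble each other and mostly lack polyA tails, so its level is uncertain. Rbm14, a nuclear RNA-binding protein, went from 0.76 to -0.16, Lrp3, a receptor of the LDL receptor family, from 0.71 to -0.18, and Opn3, an opsin, from 0.87 to 0.0015.

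Early decreases that faded included Cdc20, above, and a pair of further mitosis genes, Pimreg, a regulator of the metaphase transition (-1.37 to -0.024), and Cenpf, a kinetochore protein (-1.14 to 0.20). Apln, the vasoactive peptide apelin, lay between 7.1 and 8.55 CPM (median 7.58) in DMSO2 and between 2.38 and 4.25 CPM (median 3.74) in Ace at 6 hours, and between 13.7 and 30.9 CPM (median 16.6) in DMSO2 and between 11 and 34 CPM (median 17.4) in Ace at 24 hours. Both arms rose over time, Ace from the lower start, and their ranges overlapped at 24 hours, with an interaction of 1.19 ± 0.28 (SE, quasi-likelihood FDR = 0.0012). Ppp1r10, a nuclear partner of protein phosphatase 1, did likewise, from -0.86 to 0.22. Of the 60 genes in no class, Ngfr, the low-affinity neurotrophin receptor, rose over time by 3.17 in Ace and 2.11 in DMSO2, and Etv5, an ETS factor of growth factor signalling, rose by 1.07 in DMSO2, while its change in Ace of 0.33 did not pass.

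Genes tied to the drug itself gave a mixed picture. Of 21 NRF2 targets 6 were higher and 0 lower in the interaction (median 0.18), beside 5.58% and 6.06% of all genes. In Ace 8 were higher at 6 hours and 14 at 24 hours, beside 16.5% and 18.2% of all genes. Nqo1, a quinone reductase, lay between 147 and 173 CPM (median 160.2) in DMSO2 and between 202 and 255 CPM (median 233) in Ace at 6 hours, and between 24.2 and 37.8 CPM (median 31.2) in DMSO2 and between 52.2 and 87.7 CPM (median 76.4) in Ace at 24 hours. Every Ace library was above every DMSO2 library at both times, while both arms fell over time. Its effect grew from 0.55 to 1.26, an interaction of 0.72 ± 0.14 (SE, quasi-likelihood FDR = 9.4e-05). Gclc, the rate-limiting enzyme of glutathione synthesis, had effects of 1.06 and 1.25 that did not differ detectably (0.19 ± 0.090, SE, quasi-likelihood FDR = 0.14). The antioxidant response element TGACNNNGC was in 4 of 17 promoters of the list (23.5%) and in 14.5% of all promoters. Left-out libraries moved the list's count between 4 and 6, and it was 6 without library 7 of Ace at 24 hours.

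Of 23 genes of glutathione transfer and synthesis 3 were higher and 1 lower in the interaction (median 0.13), beside 5.58% and 6.06% of all genes. Gstp1, a transferase that also conjugates the quinone imine of Ace, had 346 to 427 (median 407) CPM in DMSO2 and 410.1 to 481 (median 438) in Ace at 6 hours, then 185 to 229 (median 205) in DMSO2 and 343 to 389.7 (median 370.1) in Ace at 24 hours. It overlapped at 6 hours and stood above DMSO2 in every Ace library at 24 hours, with an interaction of 0.64 ± 0.086 (SE, quasi-likelihood FDR = 2.7e-08). Gss, glutathione synthetase, had 0.44 ± 0.083, Gstt3, a theta class transferase, 0.84 ± 0.22, and Me1, the NADPH-making malic enzyme of the NRF2 list, 0.48 ± 0.080 (SE). The list of Ace metabolism held 29 genes, of which only 18 were in the count table and could be tested. Of these 18, 3 were higher and 1 lower, beside the same shares of all genes. The list's median of -0.018 changed sign with scaling by library size alone. Cyp1a1, a P450 induced through the aryl hydrocarbon receptor, lay between 9.31 and 13.7 CPM (median 11) in DMSO2 and between 6.21 and 9.08 CPM (median 7.85) in Ace at 6 hours, and between 0.47 and 1.34 CPM (median 0.495) in DMSO2 and between 0.791 and 2.77 CPM (median 1.43) in Ace at 24 hours. It was lost over time in both arms, more in DMSO2, and its effect went from -0.51 to 1.17 (interaction 1.68 ± 0.27, SE, quasi-likelihood FDR = 2.1e-06). Papss2, which makes the sulfate donor for conjugation, was the lower gene (-0.76 ± 0.13, SE). Cyp1b1, a P450 of the same receptor pathway, was lower in Ace at 6 hours by an effect that faded, -0.79 to -0.20. Of 25 prostaglandin genes, the pathway Ace inhibits as a drug, 0 were higher and 2 lower, beside 5.58% and 6.06% of all genes. Their median was -0.055, a sign that also changed with scaling by library size alone. The cyclooxygenase genes Ptgs1 (-0.11 ± 0.16, SE, quasi-likelihood FDR = 0.7) and Ptgs2 (-0.18 ± 0.32, SE, quasi-likelihood FDR = 0.76) did not pass.

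Among other metabolic lists, 6 of 42 genes of cholesterol and fatty acid synthesis were higher and 0 lower in the interaction (median 0.14), beside 5.58% and 6.06% of all genes. They included Cyp51, a late enzyme of cholesterol synthesis (0.48 ± 0.10, SE). The list fell over time in both arms, 31 genes in DMSO2 and 28 in Ace, where 25.5% and 23.8% of all genes fell. Of 38 proteasome genes 9 were higher and 0 lower (median 0.19), a count that was 4 without library 1 of DMSO2 at 6 hours and 22 with scaling by library size alone. No ribosomal protein gene of 55 passed (median -0.15), nor did more than 1 of 73 genes of oxidative phosphorylation, which was Cox8b, the muscle form of a cytochrome oxidase subunit (-0.72 ± 0.17, SE). Glycolysis (2 lower of 30), fatty acid oxidation (1 higher and 2 lower of 46) and the TCA cycle (2 and 2 of 35) were below the share of all genes that passed or near it, and the medians of these lists and of oxidative phosphorylation changed sign with scaling by library size alone. Of the remaining lists, ribosome biogenesis had 5 higher and 0 lower genes of 51, phospholipid synthesis 2 and 0 of 38, and autophagy and lysosome 1 and 3 of 49. Heat shock factor targets had 1 and 0 of 20, immediate early genes 1 and 0 of 34, and cardiac stress and fetal genes 1 and 1 of 33. In each of these the share that passed was below the 11.6% of all genes.

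Among genes of the heart muscle cell, 2 of 50 sarcomere genes and 8 of 53 ion channel genes passed the interaction test, beside 11.6% of all genes. Of the 50 sarcomere and Z-disc genes 2 were lower and 0 higher in the interaction, with a median whose sign depends on the scaling. At 6 hours 14 were lower and 2 higher in Ace, beside 15.2% and 16.5% of all genes. At 24 hours 20 were lower and 2 higher, beside 19.1% and 18.2%. Among those that passed the interaction test was Myl7, the atrial myosin light chain. It had 80.1 to 108 (median 98.1) CPM in DMSO2 and 90.9 to 108 (median 94.9) in Ace at 6 hours. At 24 hours it had 63.7 to 85 (median 73.3) in DMSO2 and 34.7 to 47.1 (median 39) in Ace. It overlapped at 6 hours and was below DMSO2 in every Ace library at 24 hours (interaction -0.82 ± 0.11, SE, quasi-likelihood FDR = 3.1e-08). Myh6 (-0.16 ± 0.14, SE) and Myh7 (-0.34 ± 0.32, SE), the cardiac myosin heavy chains, did not pass, with quasi-likelihood FDRs of 0.47 and 0.49. Of the 53 ion channel and calcium handling genes 3 were higher and 5 lower. Both lists depended on the fit: with only the 27 libraries fitted, where 2697 genes passed in all, 5 sarcomere genes were higher and 6 lower, and 8 ion channel genes were higher and 9 lower, and with scaling by library size alone 4 and 1, and 5 and 1. Atp2a2, the calcium pump of the sarcoplasmic reticulum, was lower (-0.39 ± 0.10, SE), a call lost with scaling by library size alone (quasi-likelihood FDR = 0.025), and Jph2, which holds that membrane at the T-tubules, had an early decrease that faded (-0.51 to 0.091). Corin, the protease that activates natriuretic peptides, went down (-1.30 ± 0.24, SE), whereas the peptide genes Nppa (0.56 ± 0.23, SE, quasi-likelihood FDR = 0.071) and Nppb (0.36 ± 0.47, SE, quasi-likelihood FDR = 0.64) did not pass. Eno3, the muscle enolase of glycolysis, was at 63 to 74.9 (median 67.1) CPM in DMSO2 and 55.6 to 62.5 (median 59.9) in Ace at 6 hours, then 96.5 to 125 (median 118) in DMSO2 and 35.9 to 46.5 (median 38) in Ace at 24 hours. Every Ace library was below every DMSO2 library at both times, with an interaction of -1.33 ± 0.081 (SE, quasi-likelihood FDR = 4.1e-20).

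Some genes of the interferon, cytokine and clock lists passed the interaction test, which 11.6% of all genes did. Of 34 interferon response genes 3 were higher and 2 lower, among them Isg15, a ubiquitin-like protein (0.96 ± 0.21), and Gbp4, a guanylate-binding protein at under 1 CPM in the median of each group (1.70 ± 0.42), which were higher, and Bst2, tetherin (-0.92 ± 0.23), which was lower (SE). Without library 7 of Ace at 24 hours 5 were higher and 3 lower. Of 36 chemokines and cytokines 1 was higher, Lif, leukemia inhibitory factor (1.56 ± 0.37, SE), and 2 were lower. Of 21 clock genes 3 were higher and 2 lower: Ciart, a repressor of the clock, went from -0.41 to 0.99, and Nr1d1, the receptor REV-ERB alpha, reversed from -0.39 to 0.34.

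An interaction can come from either arm, and change in DMSO2 alone was the most frequent pattern in both directions. Of the 812 higher genes, 303 passed the test for change over time only in DMSO2 and 161 only in Ace, 202 changed in the same direction in both arms, 136 changed in opposite directions and 10 changed in neither. Of the 882 lower genes the numbers were 367, 250, 191, 59 and 15. Among the 490 genes that grew upwards, 375 fell over time in DMSO2 and 176 rose in Ace, and among the 466 that grew downwards, 304 rose in DMSO2 and 194 fell in Ace. The 91 that reversed upwards fell in DMSO2 in 86 cases and rose in Ace in 65. A gene called only in DMSO2 was not thereby shown to differ in that arm alone, and the interaction is the test of the difference.

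**Figure D5:**
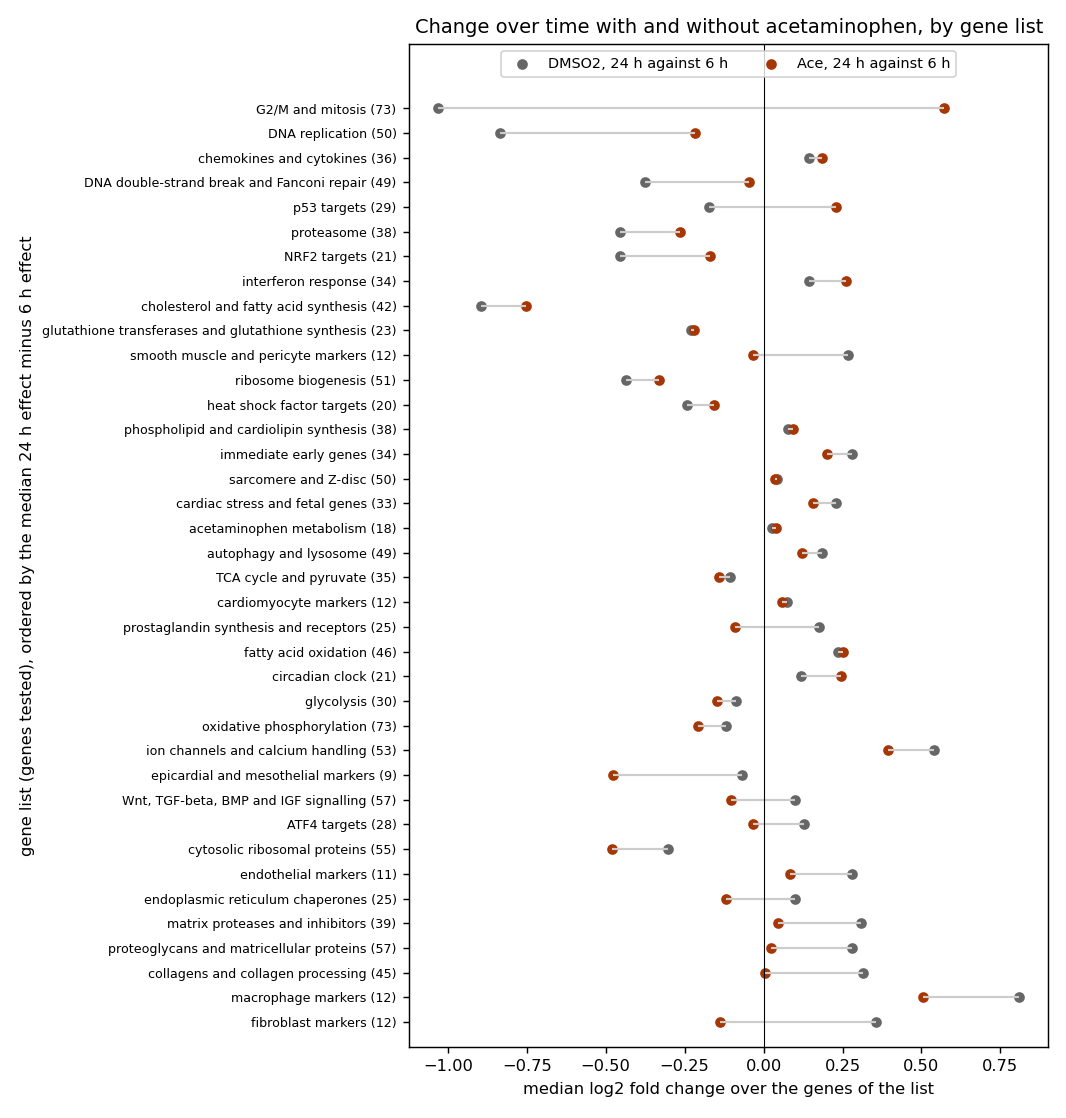
Median log2 change from 6 to 24 hours in Ace and in DMSO2 over the tested genes of each of 38 gene lists with at least 9 genes. G2/M and mitosis lies at 0.57 in Ace and -1.03 in DMSO2, the widest gap, and fibroblast markers at -0.14 and 0.36 in the opposite direction.

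The same difference between times was taken for the other drugs, to see whether that of Ace differed. The interaction of Ace and that of 5FU, which has its own DMSO1 control, differed for 2880 genes (19.8%), 1356 with a higher value in Ace (9.32%) and 1524 with a lower one (10.5%). The doses and controls of the drugs differ, so these are contrasts between whole treatments. Of the 73 mitosis genes 41 were higher in Ace than in 5FU and 0 lower. The mitosis list's median interaction was 1.67 in Ace and 0.83 in 5FU, and the median difference was 0.76. Top2a differed by 1.05 ± 0.20 (SE, quasi-likelihood FDR = 3.3e-05) and Xkr5 by 2.0 ± 0.28 (SE), while for Cdc20 the difference of 0.26 ± 0.23 (SE) did not pass (quasi-likelihood FDR = 0.42). For Gdf15, whose own interaction in Ace did not pass, the difference from 5FU was 3.22 ± 0.59 (SE, quasi-likelihood FDR = 2.3e-05). Of the 45 collagen genes 22 were higher in Ace than in 5FU and 0 lower (median difference 0.80). The collagen list's median interaction was below 0 in both, -0.28 in Ace and -1.10 in 5FU. The interactions of Ace and Dox, which share the DMSO2 libraries so that these cancel from the difference, differed for 9236 genes (63.5%), 4340 higher in Ace (29.8%) and 4896 lower (33.6%). The mitosis list's median interaction in Dox was 0.67, and 52 of the 73 genes were higher in Ace than in Dox and 3 lower. The collagen list's median in Dox was -0.73, and 25 of the 45 genes were higher in Ace and 8 lower.

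Ranges of CPM in the libraries show these separations without a fitted model, though CPM rests on the same TMM scaling as the test. At 24 hours the CPM of every Ace library was above that of every DMSO2 library for 13.2% of all genes and below it for 13.7%, and at 6 hours for 12.4% and 12.1%. Of the 73 mitosis genes 50 were apart upwards at 24 hours and 42 apart downwards at 6 hours. Of the 12 fibroblast markers 9 were apart downwards at 24 hours and 7 at 6 hours.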

How the data were processed

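PolyA RNA of 65 cultures was sequenced. The authors made the estimated counts with kallisto 0.46.0 and tximport against a rat annotation, removed genes with low counts, and deposited whole numbers that were not normalized (14554 genes with Entrez identifiers). A count minimum of 10 in at least 1 library removed nothing more. Counts were scaled with TMM in edgeR 4.0.16 (R 4.3.3), a quasi-likelihood model was fitted to all 65 libraries with 10 groups and no covariate, and contrasts were called at an FDR below 0.01 (Benjamini-Hochberg over all genes). SE is the absolute log2 fold change divided by the square root of F. Pairs of libraries of the same group had a chi-square per gene of 3.08 or more, above the value of sampling noise alone, so no library was counted as a repeat. Alternatives were the DESeq2 1.42.0 Wald test, DESeq2 size factors, library size only, filterByExpr, no filter, the 27 libraries alone, an FDR below 0.1, an absolute log2 fold change of at least 1, and each of the 27 libraries left out. The deposited columns carry no replicate numbers, so libraries are numbered only as labels. Symbols came from RefSeq of GRCr8 (14009 of 14554 identifiers).

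Genes were named as the 10 largest rises and falls among called genes with a mean count of at least 100, the 5 largest changes of each time course, and called members of the 40 gene lists, which held 1306 tested genes. Some list members were named whatever their result, such as Gdf15, Col1a1 and Ptgs2. Gli1, Ptch1 and Ahrr were chosen after their values were seen. Some genes that these rules name are not reported here. Lists, members and tests were chosen with earlier results of these data known. The test was tried on simulated data with known changes. The authors' own fold changes and p-values were not used here.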

Additional observations from a re-analysis of the deposited data

Results flagged for a closer look

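Of 240 group values checked (51 genes and 9 lists in 4 groups), 24, or 10%, had 1 library set apart from the rest of its group by a gap test, where chance alone marks about 1 in 20 groups. Library 7 of Ace at 24 hours accounted for 8 of them. It was lowest for Ankle1 (5.89 CPM), Espl1 (21 CPM), Cenpt (10.6 CPM) and Mki67 (89.4 CPM), and for the mean log2 CPM of the mitosis (3.97), replication (4.31), repair (3.73) and NRF2 (6.05) lists. Library 7 of DMSO2 at 24 hours, whose number ties it to nothing in Ace, was lowest for the NRF2 list (5.60), and library 2 of Ace at 24 hours for the cardiomyocyte markers (11.4).

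Single genes set apart at 6 hours in Ace were Fam111a in library 6 (highest, 21.8 CPM), Fndc1 in library 6 (lowest, 5.33 CPM), Dhrs7c in library 2 (highest, 27.1 CPM), Sfrp2 in library 5 (highest, 4.70 CPM) and Ptgs2 in library 4 (highest, 5.06 CPM). In DMSO2 at 6 hours they were Dpep1 in library 2 (lowest, 8.04 CPM), Rnf152, a lysosomal ubiquitin ligase, in library 7 (lowest, 4.10 CPM), Ptgs2 in library 3 (lowest, 1.78 CPM) and Atf4 in library 7 (highest, 210.0 CPM). At 24 hours H1f2 was highest in library 1 of Ace (101 CPM), and in DMSO2 Xkr5 was lowest in library 2 (1.16 CPM), Apln highest and Ngfr lowest in library 4 (30.9 and 8.45 CPM) and Myh7 highest in library 1 (3730.0 CPM).

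Effects that differed between groups under the same contrast were the 1694 genes whose Ace effect differed between 24 and 6 hours, the 2880 whose interaction in Ace differed from that in 5FU and the 9236 whose interaction in Ace differed from that in Dox, each by a test of the difference itself.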

How the results depend on the processing

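The DESeq2 Wald test called 1912 interactions (874 higher, 1038 lower), and leaving out each library in turn gave 1476 (without library 2 of Ace at 6 hours) to 1759. No interaction of the 114 genes examined changed sign under any alternative. At an FDR below 0.1 the interaction called 3867 genes (1769 higher, 2098 lower), the 6 hour effect 7120 (3520 lower) and the difference from 5FU 5447 (2636 higher, 2811 lower), and the time courses held 992 (grew upwards), 1021 (grew downwards), 905 and 547 (higher and lower effects that faded), 147 (reversed from higher to lower) and 198 (from lower to higher). With an absolute log2 fold change of at least 1 the counts were 340 (226 and 114) for the interaction, 384 (136 and 248) at 6 hours, 891 (378 and 513) at 24 hours, 781 (434 and 347) for change over time in Ace, 998 (517 and 481) in DMSO2, 626 (437 and 189) against 5FU and 3664 (1694 and 1970) against Dox, with 166, 91, 11, 23, 0 and 0 in the time courses. Scaling by library size alone gave 1402 higher and 417 lower interactions, 1229 of the 1819 genes being shared with the TMM calls, and 832, 258, 135, 384 and 10 genes in the first 5 time courses. Fitting only the 27 libraries called 2697 (1265 and 1432), with 746 that grew downwards, 580 and 388 that faded and 64 that reversed from higher to lower. The causes were not tested, except that a looser FDR limit or a size limit changes counts by construction.

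No paired analysis was possible because the deposited columns carry no replicate numbers. Calls for Rnf152, Id1 and Gipc2 were lost in 15, 18 and 5 of the 27 fits that left out a library, so their interactions are not described. Medians of the lists of Ace metabolism, prostaglandins, sarcomere, cardiac stress, oxidative phosphorylation, TCA cycle, fatty acid oxidation, glycolysis, autophagy, clock and cardiomyocyte markers changed sign with scaling by library size alone. Depth limits the genes under about 1 CPM most, whose fold changes rest on few counts.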

Other observations

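Hedgehog target genes were on none of the lists. Gli1, a transcription factor that hedgehog signalling induces, lay 0.0523 to 0.519 (median 0.175) CPM in DMSO2 and 0.0546 to 0.247 (median 0.166) in Ace at 6 hours, then 0 to 0.233 (median 0.104) in DMSO2 and 0.936 to 2.96 (median 2.22) in Ace at 24 hours. Its counts were at most 5 in Ace and 10 in DMSO2 at 6 hours and at most 4 in DMSO2 at 24 hours, so the fitted interaction of 4.55 ± 0.74 (SE, quasi-likelihood FDR = 3.0e-06) is imprecise, but every Ace library at 24 hours was above every other library. Ptch1, the hedgehog receptor and a target as well, did not pass (-0.15 ± 0.11, SE, quasi-likelihood FDR = 0.35). Ahrr, the repressor that the aryl hydrocarbon receptor induces along with Cyp1a1, was lower in Ace at 6 hours (-1.22) and less so at 24 hours (-0.45), where Cyp1a1 was higher in Ace, with an interaction of 0.77 ± 0.18 (SE, quasi-likelihood FDR = 8.0e-04). These 3 genes were chosen after their values were seen.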
